A study of Malus domestica with 6 samples.

Results

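The genes described here encode the enzymes that draw intermediates away from anthocyanin towards flavan-3-ols and flavonols. They are the 7 gene IDs to which the study's text gives the names MdANR, MdLAR and MdFLS, out of 52311 gene IDs in each expression table: 2 anthocyanidin reductases (ANR), 3 leucoanthocyanidin reductases (LAR) and 2 flavonol synthases (FLS). Messenger RNA was measured in 6 libraries from the cortex (mesocarp) of apple, cv. 'R201', a red-flesh parent of the study's F1 families, in untreated fruits at 84 days after full bloom, when part of the flesh loses its colour. There were 3 libraries of red flesh (RF) and 3 of white flesh (WF), lettered A to C. The labels state that RF and WF were taken from the same fruits, and the replicates, called semi-biological, were fruits of different trees. Per the study RF was the outer and WF the inner cortex, so colour and position cannot be told apart, and 1 cultivar at 1 stage was sampled.

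Anthocyanins, flavonols and flavan-3-ols share a route from phenylalanine through chalcone and flavanone to dihydroflavonols. FLS oxidises dihydroflavonols to flavonols such as quercetin, while dihydroflavonol reductase (DFR) passes the same substrates on to leucoanthocyanidins. LAR turns leucoanthocyanidins into catechin, whereas leucoanthocyanidin dioxygenase (LDOX) forms the coloured anthocyanidins. ANR reduces anthocyanidins to epicatechin, and glycosyltransferases stabilise the same anthocyanidins as anthocyanins. In apple, epicatechin and the procyanidins built from it are major flavan-3-ols of the flesh. The enzyme names are those of the study. Its functional annotation, as far as it was held here, described only MD01G1077800, as an NAD(P)-binding Rossmann-fold superfamily protein, and no sequence was held to check any of the 7 names.

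Library totals ran from 25536185 to 26050906 estimated reads. For comparison, 15 genes of the shared route and the late anthocyanin steps were taken, from chalcone synthase to a glucosyltransferase. Of these, 15 of 15 were called higher in RF, against 6.08% of all genes tested. The study's descriptions of its called genes supplied these 15, so that count was largely set by the choice and does not check the colour labels. No mesocarp markers were available, so the tissue label was not checked either.

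The 7 genes fell into 3 levels of expression, abundant, minor and nearly silent, and RF and WF had the same genes at each level. TPM, the read density per transcript length scaled within a library, was used to set genes against each other. ANR MD01G1077800 (chromosome 1) and FLS MD15G1353800 (chromosome 15) were the abundant copies, with mean TPM over all libraries of 36.0 and 33.3, higher than 89.9% and 89.1% of all gene IDs. Their TPM ranges overlapped, so the order of these 2 is not fixed. ANR MD05G1335600 (chromosome 5) at 6.14 TPM and FLS MD08G1168600 (chromosome 8) at 2.62 TPM were minor copies, with ranges that did not meet. All 3 LAR genes lay below 0.22 TPM in every library.

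**Figure D1:**
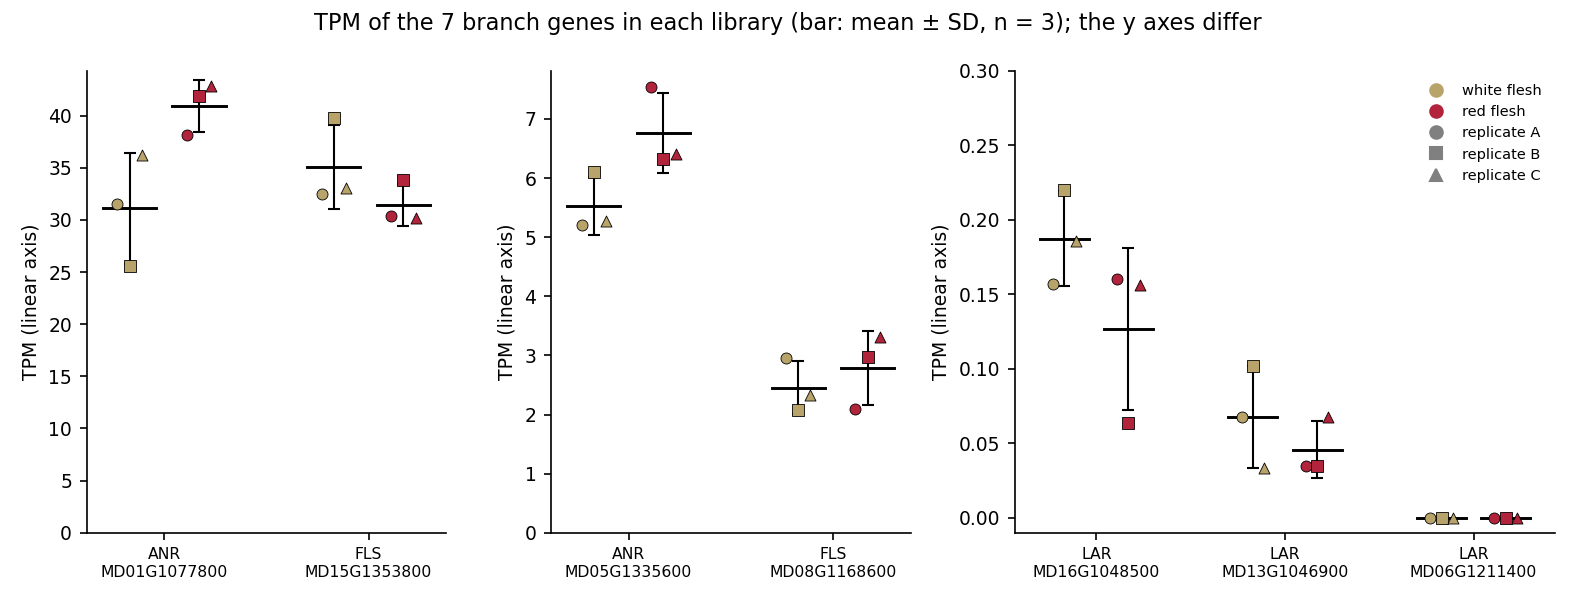
TPM (y axis, linear, with a different range in each panel) of the 7 branch genes in the 6 libraries, coloured by flesh type and shaped by replicate letter, with mean and SD (n = 3). The RF points lie above all WF points for both ANR copies, overlap them for both FLS copies, and the LAR copies stay at 0.22 TPM or less.

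Of the 2 ANR copies, MD01G1077800 was called higher in RF, and MD05G1335600 was not called. The study reported neither as differentially expressed. For its lists of over- and underexpressed genes it also required a minimum fold change, which was not required here. In WF, MD01G1077800 had 31.5, 25.6 and 36.2 TPM in replicates A, B and C, and in RF it had 38.1, 41.9 and 42.8 TPM. The lowest RF library was above the highest WF library, and each RF library exceeded the WF library of its letter. How many of all genes separate in this way was not counted, so here and below a lack of overlap is description only. Normalised counts (CPM) rose from 19.3 ± 3.37 in WF to 25.3 ± 1.24 in RF (SD, n = 3), a 1.31-fold difference with a 95% interval of 1.11 to 1.55 (edgeR's quasi-likelihood test, adjusted p = 0.0436). In bulk tissue, a change in the share of cells that express a gene and a change in RNA per cell cannot be told apart. Of the 4 members with enough reads to test, this gene alone was called, against 10.8% of all 28610 genes tested (6.08% higher in RF and 4.68% lower). It was also the only member called by DESeq2 (adjusted p = 0.0215) and by edgeR with a replicate block, where 8.8% and 18.8% of all genes tested were called.

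In the fit without pairing, the call on MD01G1077800 lay close to the threshold. Its log2 fold change of 0.39 (SE 0.11) fell to 0.27 without WF replicate B, the library with the lowest value, and the edgeR adjusted p was then 0.144. It was also above 0.05 without WF replicate A (0.0794) and without RF replicate A, B or C (0.0785, 0.118 and 0.136). With all libraries paired by letter (replicate block) it was 0.00474, and over 16 settings the adjusted p ran from 0.00474 to 0.144. The estimate was above 0 in each of these settings.

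**Figure D2:**
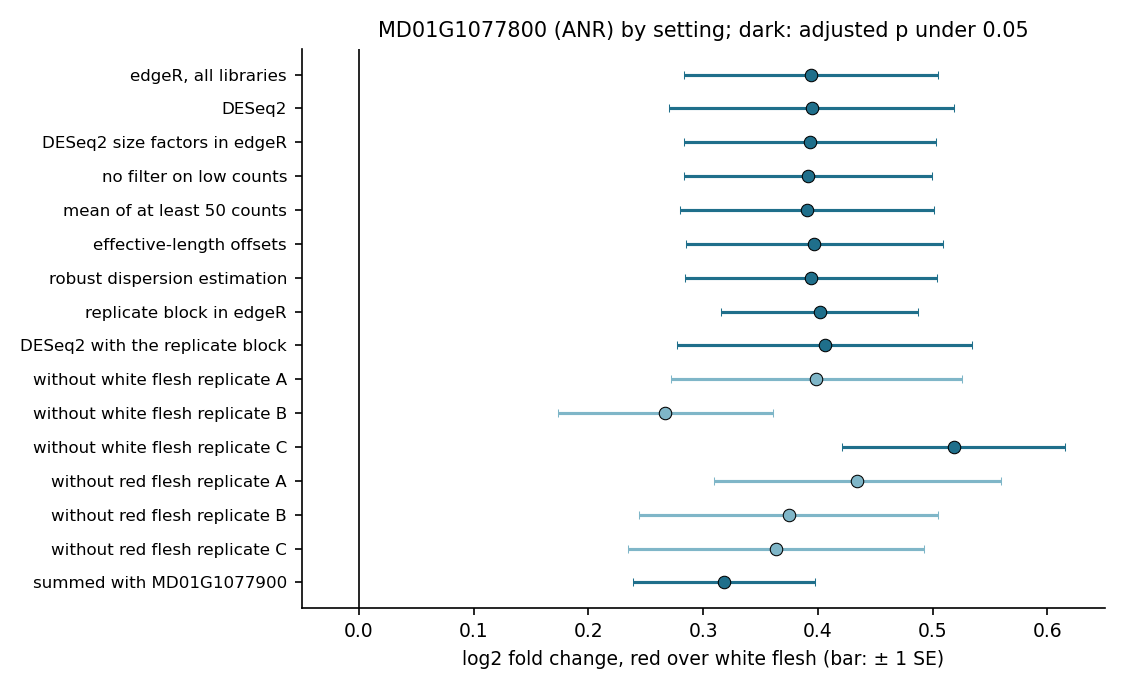
Log2 fold change of MD01G1077800 between RF and WF (x axis) with 1 SE, by setting (y axis). All 16 points, the summed pair with MD01G1077900 included, lie between 0.27 and 0.52, and the 5 light points, each a fit without 1 library, are those with an adjusted p above 0.05.

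The gene ID that follows it on chromosome 1, MD01G1077900, carries the same description and was higher in RF as well. It had 47.5, 51.8 and 59.1 TPM in WF and 64.3, 66.7 and 62.4 TPM in RF. The groups did not overlap, and the log2 fold change was 0.29 (SE 0.08, edgeR adjusted p = 0.0440, and up to 0.156 when any library other than WF replicate C was left out). The estimated counts of both IDs were not whole in any of the 6 libraries, which happens when reads match more than 1 gene and are divided, so the level of each is uncertain. With the reads of both summed, a setting added after the data were seen, the log2 fold change was 0.32 (SE 0.08, edgeR adjusted p = 0.0266). That call too was absent without WF replicate A or B or any RF replicate (adjusted p from 0.0726 to 0.127). Within a library, the TPM of MD01G1077800 was 0.493 to 0.686 times that of its neighbour. The log2 of this ratio differed between RF and WF by 0.12 (exact permutation test, two-sided, p = 0.6). With so few libraries that test cannot go below 0.1, so it could not have made a call.

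The minor ANR copy, MD05G1335600, pointed the same way but did not pass the test. It had 5.21, 6.10 and 5.27 TPM in WF and 7.54, 6.33 and 6.41 TPM in RF. The groups did not overlap, although RF replicate B exceeded WF replicate B by only 0.04 on the log2 CPM scale. The fold change was 1.22 (95% interval 1.02 to 1.47, edgeR adjusted p = 0.163), and no setting called it (adjusted p 0.104 to 0.58). Its counts were not whole in any library, so reads of other genes may be included.

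Of the 2 IDs that the study names MdANR, MD01G1077800 was the more abundant in every library. Its share of their summed TPM was 84.6% in WF and 85.8% in RF on average, from 80.7% to 87.3% in single libraries. It exceeded the minor copy 4.19-fold to 6.87-fold. The log2 ratio of the copies differed between RF and WF by 0.12, beside SDs between replicates of 0.37 in WF and 0.23 in RF. An exact permutation test (two-sided) gave p = 0.7, but with so few libraries it cannot go below 0.1, so it could not have made a call. Without WF replicate B the sign of this difference turned, to -0.087. Summed ANR TPM was 36.8, 31.6 and 41.5 in WF and 45.7, 48.2 and 49.2 in RF, without overlap. These shares and all ANR sums given here leave out MD01G1077900. That ID carries the same description as MD01G1077800 and had the higher TPM in every library.

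Markers of green tissue also differed between the flesh types. Of 24 tested genes described as light-harvesting, photosystem or Rubisco proteins, 20 were called higher in RF and 0 lower, and their summed level was 1136 to 1358 CPM in WF and 1919 to 2011 CPM in RF. Of the 26 genes on that list, 1 was at 0 in every library (MD02G1178900). Of 6 genes described as lipid transfer proteins or 3-ketoacyl-CoA synthases, families active in the epidermis but not limited to it, 4 were called higher and 1 lower, with sums of 173 to 193 CPM in WF and 188 to 238 CPM in RF. Over all genes tested, 6.08% were called higher in RF and 4.68% lower. Nearly all genes on both lists had been called by the study, so the counts of calls were largely set by that choice. The part of these genes in the ANR difference was not tested.

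Neither FLS copy was called different between RF and WF. MD15G1353800, the abundant copy, had 32.5, 39.7 and 33.1 TPM in WF and 30.4, 33.8 and 30.2 TPM in RF. The groups overlapped, while each RF library was below the WF library of its letter. The log2 fold change was -0.16 (95% interval -0.35 to 0.03, edgeR adjusted p = 0.297), so an increase of more than 1.02-fold in RF lies outside that interval. In the paired fit the 95% interval was -0.29 to -0.02, wholly on the side of lower RF. The edgeR adjusted p was then 0.0983, the lowest of its settings and still not a call. Its counts were not whole in 5 of the 6 libraries.

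The minor FLS copy, MD08G1168600, was measured less precisely. It had 2.95, 2.08 and 2.32 TPM in WF and 2.10, 2.97 and 3.31 TPM in RF, from 58.4 to 94.2 estimated reads per library. It was higher in RF in pairs B and C and lower in pair A, where the difference in log2 CPM was -0.47. The fold change was 1.14 (95% interval 0.835 to 1.55, edgeR adjusted p = 0.635), which leaves changes of up to 1.55-fold within the interval.

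Of the 2 IDs that the study names MdFLS, the one on chromosome 15 gave nearly all transcripts. Other FLS genes were not looked for. MD15G1353800 made up 93.4% of the summed TPM of these 2 IDs in WF and 91.9% in RF. It exceeded MD08G1168600 9.12-fold to 19.1-fold in single libraries. The mean log2 ratio of the copies differed between RF and WF by -0.33, within the spread (SD 0.40 in WF and 0.33 in RF, exact permutation test, two-sided, p = 0.5). Ratios were compared for 3 pairs of genes, each with a Benjamini-Hochberg adjusted p of 0.7. With 3 libraries against 3, such a test cannot give a p below 0.1, and it does not use the pairing by letter. Chromosomes 8 and 15 are known as homoeologous partners from the old genome duplication of apple, as are 13 and 16, which carry 2 of the LAR genes. Whether these genes descend from that duplication was not tested.

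**Figure D3:**
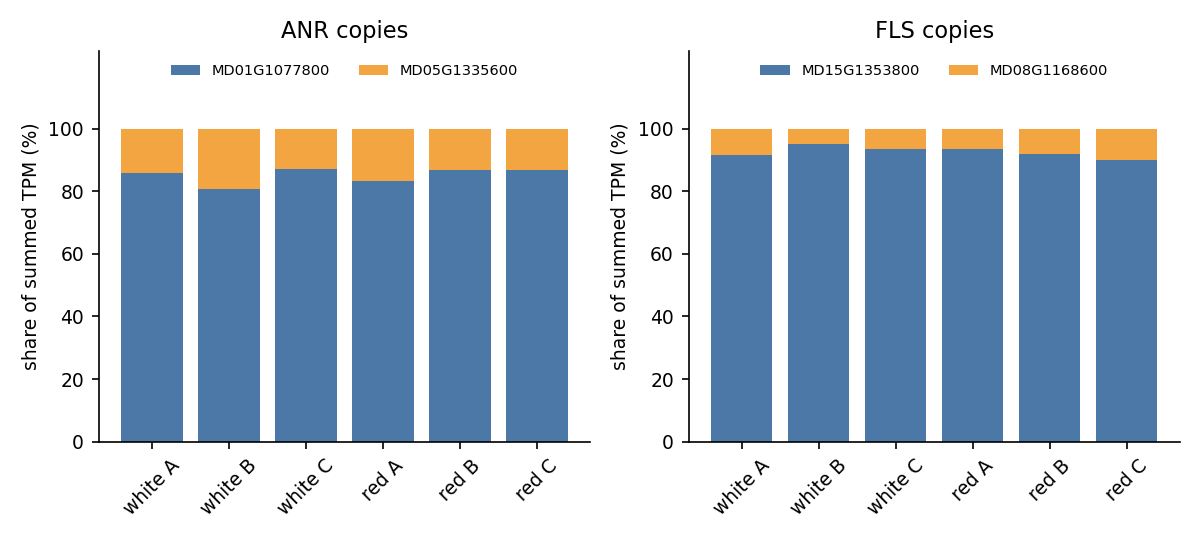
Share (y axis, percent) of each copy in the summed TPM of the study's MdANR or MdFLS IDs, in the 6 libraries (x axis). MD01G1077800 holds 80.7% or more of ANR (without MD01G1077900) and MD15G1353800 90.1% or more of FLS in every library.

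The 3 IDs that the study names MdLAR were nearly silent. MD06G1211400 (chromosome 6) had 0 reads in every library, which allows up to 3 reads, or 0.115 to 0.120 CPM, in each. MD13G1046900 (chromosome 13) had 2, 3 and 1 reads in WF and 1, 1 and 2 reads in RF. MD16G1048500 (chromosome 16) had 5, 7 and 6 reads in WF and 5, 2 and 5 reads in RF. All 3 fell under the expression filter and were not tested. At this depth no difference between RF and WF was detectable for MD16G1048500, with 12 reads in RF against 18 in WF, a ratio of 0.669 whose exact interval of 0.294 to 1.47 covers counting error only.

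Such low values were common in the tables. Of all gene IDs, 26.1% had 0 reads in all 6 libraries and 40.5% had at most 7 reads in every library. In the order of IDs along the chromosomes, however, the LAR genes lay among expressed genes. Of the 30 gene IDs nearest to them, 5 on each side, 25 (83.3%) had a mean of at least 10 reads, against 54.5% of all gene IDs. The abundant FLS copy lay in the opposite setting, since 3 of its 10 neighbours reached that mean and the median neighbour had 0.249 reads, against 741 for MD15G1353800 itself.

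Set against each other, the ANR and FLS IDs named by the study had summed levels near each other in WF. In every RF library ANR was the higher of them. MD01G1077900 is not in the ANR sum. The summed TPM of ANR was 1.04, 0.757 and 1.17 times that of FLS in WF replicates A, B and C. In RF it was 1.41, 1.31 and 1.47 times that of FLS. The groups did not overlap, and this sum over chosen genes was not tested. Both sums exceeded that of the LAR IDs by far, ANR 98.4-fold to 491-fold and FLS 130-fold to 374-fold. The LAR sums were 3 to 10 reads per library.

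At each fork the branch genes were then set beside the gene that continues towards anthocyanin. DFR (MD15G1024100) had a mean of 477 TPM in WF and 1032 TPM in RF, and the FLS sum was 37.6 ± 3.70 and 34.2 ± 2.23 TPM (SD, n = 3). FLS thus stood at 7.87% ± 0.57 of DFR in WF and at 3.33% ± 0.35 in RF. The 2 LDOX genes together had 114 ± 15.7 TPM in WF and 295 ± 47.1 TPM in RF, at least 410 times the LAR sum in each library. These ratios were not tested, because the study had called the genes of the anthocyanin side.

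The fork at anthocyanidins looked different. The summed ANR TPM exceeded that of UDP-glucosyl transferase MD07G1306900, an enzyme type that adds a sugar to anthocyanidins, in each WF library, where the glucosyltransferase had 11.8, 5.50 and 9.08 TPM. In RF it had 97.1, 27.7 and 79.8 TPM, above the ANR sum in replicates A and C and below it in replicate B. ANR was at 312% to 575% of the glucosyltransferase in WF and at 47.0% to 174% in RF. Apple anthocyanin is mainly a galactoside, and which glycosyltransferase of these tables forms it was not tested.

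**Figure D4:**
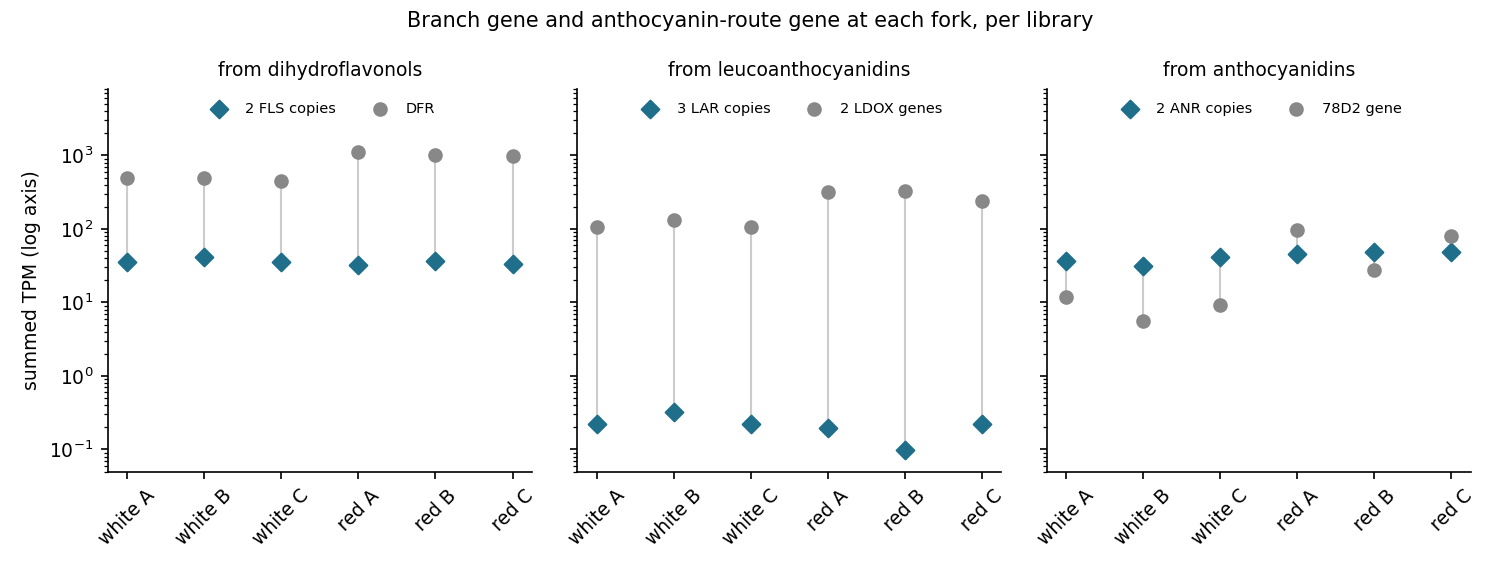
Summed TPM (y axis, log scale) of branch genes (blue diamonds) and of the gene or genes continuing towards anthocyanin (grey circles) in each library, at 3 forks. The grey circles are higher in all RF than in all WF libraries, whereas FLS stays at 32.5 to 41.8 TPM, ANR at 31.6 to 49.2 TPM and LAR at 0.322 TPM or less.

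The changes of the branch genes were small beside those of the anthocyanin route. The 15 genes of the route rose by 0.59 to 2.96 on the log2 scale, with a median of 1.11, against a median of -0.0045 over all genes tested. Those of the shared part, up to dihydroflavonols, rose by 0.59 to 2.04, and the 2.96 was that of the glucosyltransferase MD07G1306900. The 4 tested branch genes ranged from -0.16 to 0.39. The upper 95% limit of MD01G1077800, 0.64, lay below the lower limit of 11 of the 15 genes, and the upper limit of MD15G1353800, 0.03, below that of all 15. Among the early enzymes, chalcone synthase MD13G1285100 rose by 2.04, and flavanone 3-hydroxylase MD15G1246200, which forms the dihydroflavonols used by FLS and DFR, by 1.61 (edgeR adjusted p = 5.44e-06). With robust dispersion estimation 12 of the 15 were called, with DESeq2 and the replicate block 14, and without 1 library 13 to 15. They had been picked by the study from these libraries, so the gap is a description.

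**Figure D5:**
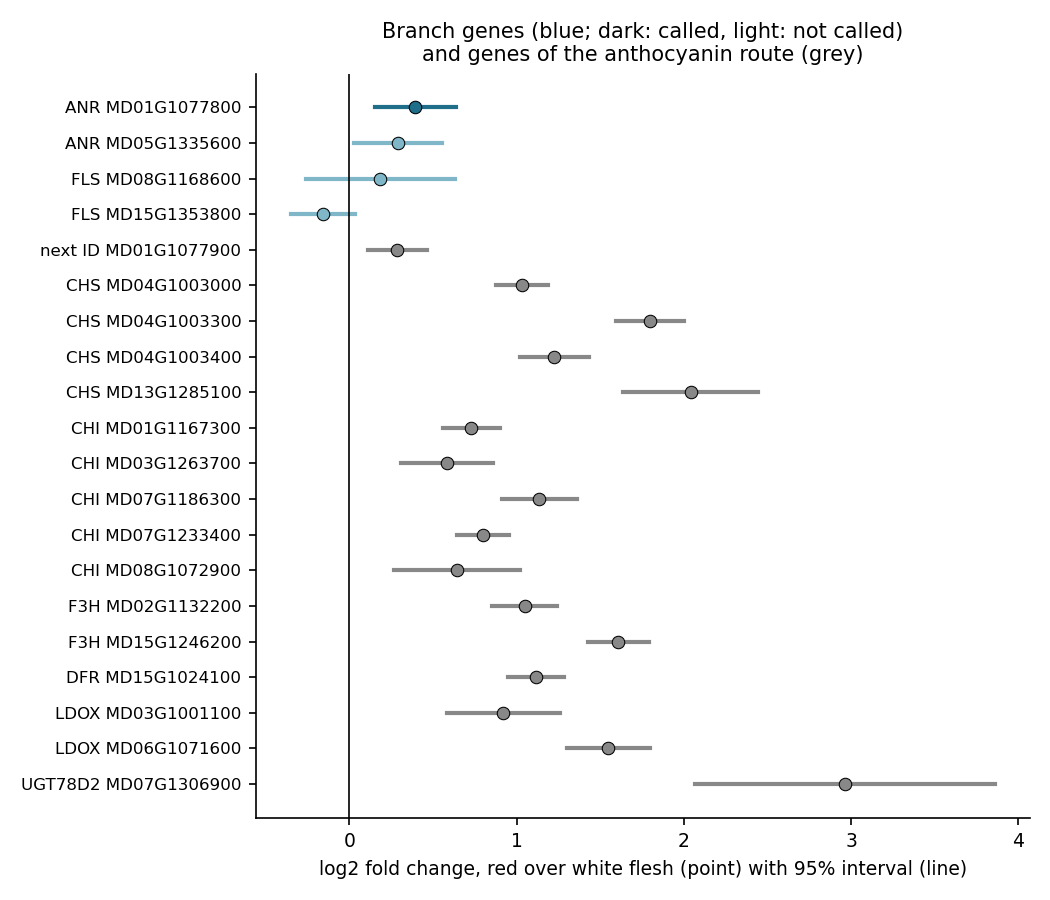
Log2 fold change between RF and WF (x axis) with its 95% interval for the 4 tested branch genes (blue), MD01G1077900 and the 15 genes of the anthocyanin route (grey). The branch genes lie between -0.16 and 0.39 and the route genes between 0.59 and 2.96.

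Of 3 regulators of the pathway listed here, 1 was called higher and 2 lower in RF. Over all genes tested, 6.08% were called higher and 4.68% lower. These 3 were picked with the study's results known, so that count is a description. Others that the study names, such as MdbHLH3 and MdMYB9, were not on this list. A gene described as a myb domain protein, MD09G1278600, was taken to be MdMYB10, the MYB factor that switches on anthocyanin genes in apple flesh, and had 21.6 ± 2.65 TPM in WF and 31.5 ± 3.49 TPM in RF (SD, n = 3, edgeR adjusted p = 0.00726). MdTTG1 (MD01G1228700), a WD40 partner of MYB and bHLH factors that also controls flavan-3-ol synthesis in Arabidopsis, fell from 53.2 ± 0.80 to 44.2 ± 3.33 TPM. Its edgeR adjusted p was 0.0284, but above 0.05 without WF replicate A or B or RF replicate A or B, at most 0.0962. The study reported MdTTG1 as not differentially expressed. MdMYB3 (MD15G1411200), whose Arabidopsis counterpart represses phenylpropanoid genes, fell from 0.922 ± 0.19 to 0.246 ± 0.15 TPM. This rests on few reads, 19 to 28 per library in WF and 2 to 9 in RF. The edgeR adjusted p was 0.0146, but 0.0694 without WF replicate B, and it was 0.0624 in the paired DESeq2 fit.

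Profiles over the 6 libraries were compared by the root mean square difference of log2 CPM, each gene centred on its mean. Candidates were the 1755 or 1756 tested genes with a description and a mean of at least 5 CPM. Descriptions came mostly from genes the study had called. Nearest to MD01G1077800 were a mevalonate/galactokinase family gene (MD16G1150400) and a light-harvesting gene (MD05G1289200), both at 0.08. A protein kinase gene (MD15G1278700) and a Clp protease gene (MD00G1089200) were nearest to MD05G1335600, both at 0.06. For MD15G1353800 they were a pentatricopeptide repeat gene (MD07G1179000, 0.04) and cyclin p1 (MD11G1285000, 0.07). None of the candidates came as close to MD08G1168600, for which a cytochrome B5-like gene (MD02G1065500, 0.15) and a pfkB-like kinase gene (MD09G1262800, 0.16) ranked highest.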

How the data were processed

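The 6 libraries were poly(A)-enriched, strand-marked and sequenced as paired reads. The authors deposited 1 table per library in the salmon format, with an estimated count per gene (a read that fits more than 1 gene is split between them) and a TPM value scaled by effective length. Alignment and quantification were run by the authors with AnaDiff. Program versions and settings: not given in the sources used here. Chromosomes were read from the gene IDs, which have the form of the GDDH13 annotation. Estimated counts were rounded and tested with edgeR 4.0.16 (R 4.3.3): quasi-likelihood test, TMM normalisation, the standard expression filter, flesh type as the only term, all 6 libraries. P-values were two-sided and Benjamini-Hochberg adjusted over 28610 genes, with calls at adjusted p under 0.05. CPM used TMM-scaled library sizes. SE and 95% intervals came from the F statistic, and they and count-based limits do not cover other errors. TPM served for levels, shares and ratios.

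Same-letter libraries deviated together across genes (correlations 0.32, 0.26 and 0.26) and share fruits per the labels, so letters were taken as pairs. The replicate block, DESeq2 1.42.0, other scaling and filters, effective-length offsets, robust dispersion and each library left out were alternatives. The main fit and the fits without 1 library did not use the pairs. P-values measure the spread between these libraries, which the labels call semi-biological.

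Members and lists were chosen with earlier results of these data known. The text names all 7 members, genes of the anthocyanin route, regulators and the ID next to MD01G1077800. For each tested member it also names the 2 described genes (mean of at least 5 CPM, 0.5 added before the log) with the nearest profile. Other neighbours are given as counts. The unpaired fit was also run on simulated counts, with planted changes larger than those of the tested members. That run does not check the calls on these members. Descriptions, held in part, came from the study's supplementary gene lists, most of them called genes.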

Additional observations from a re-analysis of the deposited data

How the results depend on the processing

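In unpaired fits, leaving out 1 library moved the log2 fold change of MD01G1077800 between 0.27 and 0.52, and ended its call for each library but WF replicate C. The other 3 tested members stayed uncalled and kept their direction in every alternative run, DESeq2 and the paired fits among them. With the replicate block, 2981 genes were called higher and 2401 lower in RF, against 1740 and 1340 without pairing, and the block changed no call on a member. Leaving out 1 library gave 939 to 1624 genes higher and 666 to 1523 lower. The lowest counts came without WF replicate B (939 and 705) and without RF replicate A (941 and 666), and 807 genes were lower without RF replicate C. In shares of estimated counts rather than TPM, MD05G1335600 held 25.5% of ANR in WF and 23.9% in RF, and MD08G1168600 10.1% of FLS in RF, since counts grow with transcript length. The difference in log2 ratio between the ANR copies ran from -0.087 to 0.27, and that between MD01G1077800 and MD01G1077900 from -0.0082 to 0.21, with both negative values obtained without WF replicate B. Depth limits the LAR genes, for which 7 reads or fewer per library leave any difference between RF and WF unresolved. Fits without filter gave estimates for MD16G1048500 and MD13G1046900 with edgeR adjusted p-values of 0.624 and 0.8.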
